A study of Mus musculus with 4 samples.

Results

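Retained introns are introns that stay in the polyadenylated mRNA while other copies of the same transcript splice them out. All intron retention events that the authors quantified in the embryonic (E14.5) mouse cortex were taken, 3381 of 38240 alternative splicing events of 6 types. Events of a gene with identical tags in all libraries were counted once, which left 3137 introns of 2136 genes, and 2979 of them had at least 1 tag. Their length ran from 30 to 6792 nt with a median of 205 nt. In total 1751 introns of 1271 genes had enough tags for a test. RNA came from the cortices of 2 control (*Qk* fl/fl, labelled wild type) and 2 *Qk* cKO (*Nestin*-Cre: *Qk* fl/fl) littermate embryos. Both groups carried the floxed *Qk* alleles, and only *Qk* cKO carried the *Nestin*-Cre transgene, which is active in neural progenitors and removes exon 2 of *Qk* in them and in the cells they give rise to, while cells of other origin, such as blood and microglia, keep the gene.

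The spliceosome reads an intron through its 5′ splice site, branch point and 3′ splice site, and short introns with weak sites are those most often left in mature mRNA. A retained intron between coding exons usually brings a stop codon into the reading frame, and such RNA is either held in the nucleus or removed by nonsense-mediated decay, whereas an intron retained in a 3′ UTR can leave the protein unchanged. *Qk* encodes the Quaking proteins, RNA-binding proteins of the STAR family whose nuclear form, Qki5, binds ACUAAC in introns and regulates splicing in neural stem cells.

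The deletion was visible in each library. The junction from *Qk* exon 2 to exon 3 was covered by 635 and 565 tags in the controls but by 63 and 68 in the *Qk* cKO embryos. The next junction, from exon 3 to exon 4, carried 574 and 439 control tags against 898 and 830. The libraries held 37942046 to 42994832 gene tags, and the introns 97323 to 116674 boundary tags, as the mean of both ends, and 452426 to 540971 junction tags. Tags are fragments that Quantas weights by its estimate of the transcript they came from, so they need not be whole. The share of nonzero intron values that were not whole was 57.8% and 54.6% in control and 63.2% and 65.6% in *Qk* cKO, and the part of this in the results was not tested. Summed RPKM of 8 progenitor markers was 1633 and 1512 in control and 1329 and 1267 in *Qk* cKO, with *Fabp7* and *Slc1a3* called, and that of 7 neuronal markers 1111 and 1144 against 1096 and 1044 with none called. Hypothalamic and diencephalic markers, low throughout, summed to 4.20 and 7.81 in control and 2.39 and 1.76 in *Qk* cKO with 3 of 4 called, 1 of 4 microglial markers was called, and none of the marker genes of intermediate progenitors, interneurons, endothelium or blood was. In a bulk tissue, fewer cells of a type and less RNA per cell cannot be told apart, and the part of these shifts in retention was not tested.

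The introns that carried the comparison are shown first. Below are the whole sequences of those introns under 150 nt that lie between coding exons and that passed the test described next, read from the annotated GENCODE M21 transcripts that keep them (GRCm38, equal to mm10). Capitals mark the first and last 2 bases, GT and AG, and the first stop codon in the reading frame entered from the upstream exon. *Ctu2* had no such stop.
Evl, chr12:108683262-108683347, plus strand, 86 nt: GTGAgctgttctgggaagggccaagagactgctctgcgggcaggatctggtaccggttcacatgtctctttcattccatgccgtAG
Cln3, chr7:126575259-126575343, minus strand, 85 nt: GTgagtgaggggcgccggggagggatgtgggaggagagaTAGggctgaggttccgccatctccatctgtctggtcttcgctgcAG
Ctu2, chr8:122481398-122481470, plus strand, 73 nt: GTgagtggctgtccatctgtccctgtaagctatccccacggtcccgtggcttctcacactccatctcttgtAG
Appl2, chr10:83611067-83611142, minus strand, 76 nt: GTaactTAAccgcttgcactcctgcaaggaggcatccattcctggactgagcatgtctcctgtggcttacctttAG
Ankzf1, chr1:75198125-75198264, plus strand, 140 nt: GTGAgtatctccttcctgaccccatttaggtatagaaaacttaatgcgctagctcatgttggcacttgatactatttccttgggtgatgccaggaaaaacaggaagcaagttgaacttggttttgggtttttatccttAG
Safb2, chr17:56563244-56563361, minus strand, 118 nt: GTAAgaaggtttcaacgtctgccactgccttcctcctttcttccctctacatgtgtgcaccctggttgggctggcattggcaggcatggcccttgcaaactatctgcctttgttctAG
Map4k2, chr19:6343884-6343971, plus strand, 88 nt: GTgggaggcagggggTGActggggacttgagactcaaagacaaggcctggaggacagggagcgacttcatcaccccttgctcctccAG
Aspscr1, chr11:120709000-120709070, plus strand, 71 nt: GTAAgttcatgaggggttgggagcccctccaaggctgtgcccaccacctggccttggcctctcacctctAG
Dab1, chr4:104680109-104680190, plus strand, 82 nt: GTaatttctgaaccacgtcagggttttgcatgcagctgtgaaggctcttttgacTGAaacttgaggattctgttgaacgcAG

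To compare retention between the genotypes, the retention of an intron was calculated as the mean of the tags crossing its 5′ and 3′ exon-intron boundaries, divided by that mean plus the tags on its exon-exon junction, and ΔI is the value in *Qk* cKO minus that in control over the tags of both libraries. By Fisher's exact test (two-sided) on tags summed over each group, with Benjamini-Hochberg adjustment over the 1751 introns, 22 introns of 21 genes passed p below 0.01, FDR below 0.1 and a ΔI of at least 0.1 in size, 1.26% of those tested. Retention was higher in *Qk* cKO in 20 of them (1.14% of the tested introns), among them introns of *Evl*, *Tia1*, *Pde1b*, *Ankzf1* and *Cln3*, and lower in 2, those of *Dab1* and *Boc*. Among the other 5 event types 3.57% of 8924 tested events were called by the same rule. In none of the 22 introns did the values of the 2 groups overlap. Over all tested introns both *Qk* cKO libraries were above both controls in 413 (23.6%) and below both in 227 (13%).

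Fisher's exact test takes each tag as independent, counts a retained molecule at both of its boundaries and leaves out the spread between embryos. The quasi-likelihood test of edgeR on the interaction of form and genotype includes that spread, but it too counts a retained molecule at both boundaries. This edgeR test called none of the 1751 introns, with 109 at an unadjusted p below 0.05 against 315 in Fisher's exact test. Of the 22 introns, 21 had an unadjusted edgeR p below 0.05 and 7 below 0.01. When the mean of the boundaries was used as the retained count, Fisher's exact test called 3 introns, those of *Evl*, *Tia1* and *Pde1b*. Leaving out a library gave between 24 calls, without control 1, and 40, without control 2, of which 8 and 14 were among the 22. With lower retention in *Qk* cKO there were then 8 and 7 calls, and 10 of 29 without *Qk* cKO 2, against 2 of 22 with all libraries.

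**Figure D1:**
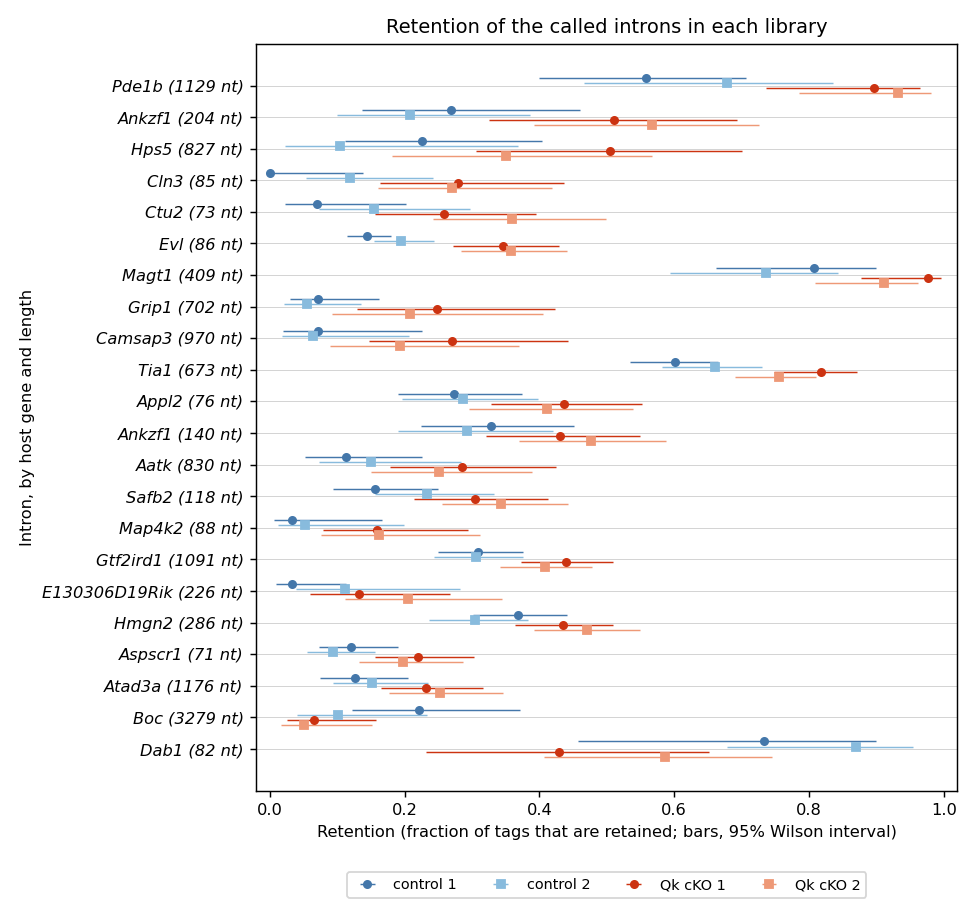
Retention of the 22 called introns in each library, as the fraction of tags that were retained (x axis), with the host gene and the intron length on the y axis. Points are single libraries and bars are 95% Wilson intervals, which cover counting error only. In each of the 22 introns both *Qk* cKO points lie on 1 side of both control points, to the right in 20 and to the left in *Dab1* and *Boc*.

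The lowest p-value belonged to the 86-nt intron of *Evl*, which encodes an Ena/VASP protein that promotes actin filament elongation. Its retention was 0.144 and 0.195 in control and 0.346 and 0.358 in *Qk* cKO, with Wilson intervals of 0.115 to 0.179 and 0.154 to 0.244 in control and of 0.271 to 0.428 and 0.283 to 0.440 in *Qk* cKO. The groups did not overlap, and neither did these intervals. ΔI was 0.188, with an adjusted p of 2.19e-12 in Fisher's exact test and of 0.206 in edgeR's quasi-likelihood test (unadjusted p = 0.000143, the smallest of all introns).

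The tags of this intron moved mainly on the spliced side. At its boundaries 66.3 and 57.9 tags were counted in the controls and 47.6 and 50.2 in the *Qk* cKO embryos, and its junction 393 and 239 tags against 90.1 in each *Qk* cKO library. The retained tags of *Evl* were thus not higher but lower in *Qk* cKO, with a log2 change of -0.42 after scaling to the gene tags of each library, beside -1.88 for the junction tags. The intron is the upstream junction of a 63-nt cassette exon that directly follows it, and the inclusion of this exon fell from 0.198 to 0.0513 (ΔI = -0.147, adjusted p = 6.08e-87, Fisher's exact test). The junction tags of the intron are therefore also inclusion tags of that exon.

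*Evl* was the only one of the 20 introns with higher retention whose scaled boundary tags were lower in *Qk* cKO. In the other 19 the scaled boundary tags were higher in *Qk* cKO, and in 18 of them the junction tags were lower as well, the exception being *Map4k2* with a log2 change of 0.19 at the junction. The larger change was at the junction in some, such as *Tia1* (-0.93, beside 0.15 at the boundaries). It was at the boundaries in others, such as *Cln3* (1.74, beside -0.24 at the junction). Over the 20 introns the median log2 change was 0.72 at the boundaries and -0.35 at the junctions, beside 0.13 and 0.03 over all 1751 tested introns, of which 63.8% had more boundary tags and 45.3% fewer junction tags in *Qk* cKO. The called introns were chosen on these same tags, so these medians only describe which side moved.

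**Figure D2:**
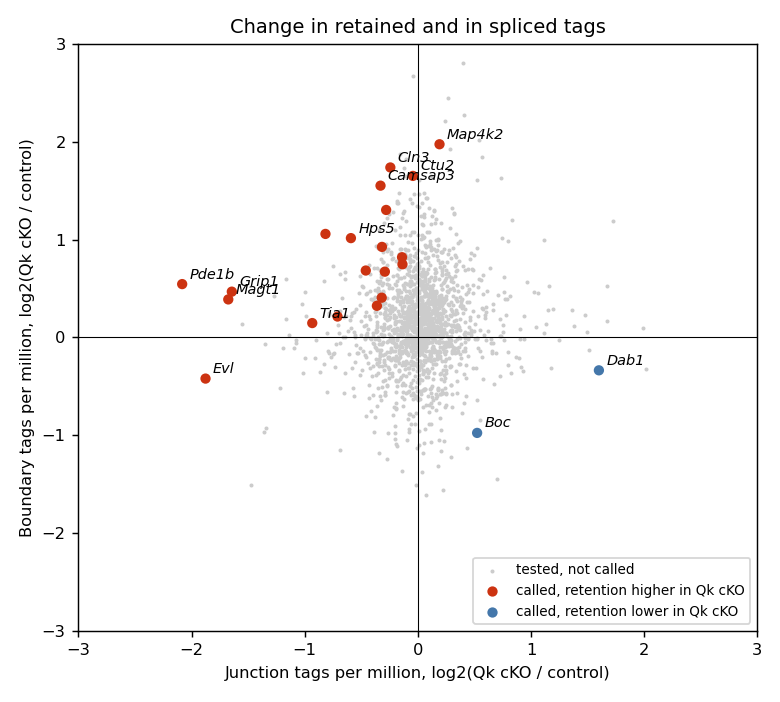
Log2 change from control to *Qk* cKO in tags scaled to the gene tags of each library, at the exon-exon junction (x axis) and at the exon-intron boundaries (y axis, mean of both ends), for each tested intron. Grey points were not called, red points are the 20 called introns with higher retention and blue points the 2 with lower retention; *Evl* is the only red point under the horizontal line.

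*Grip1*, which encodes a PDZ scaffold that binds AMPA receptors, held a 702-nt intron with the same kind of neighbour. Its retention was 0.0711 and 0.0554 in control and 0.248 and 0.209 in *Qk* cKO (ΔI = 0.168, adjusted p = 0.00578, Fisher's exact test). Junction tags went from 58.8 and 66.4 to 23.2 and 19, and boundary tags from 4.50 and 3.89 to 7.65 and 5. The intron is the downstream junction of a 156-nt cassette exon whose inclusion fell from 0.749 to 0.244 (adjusted p = 1.21e-29, Fisher's exact test).

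Among the 22 introns, 5 were an inclusion junction of a listed cassette exon (22.7%, beside 14.2% of all tested introns), those of *Evl*, *Grip1*, *Tia1*, *Camsap3* and *Gtf2ird1*. A further 2, in *Pde1b* and *Hps5*, spanned a listed 131-nt cassette exon, beside 62 of all 1751 tested introns. For these 2, RNA that joins through the exon does not count at the junction. The cassette exon was itself called in *Evl* and *Grip1*, 2 of the 22 introns beside 6 of the 1751. It was not called in *Tia1*, *Pde1b* and *Hps5*, and had too few tags for a test in *Camsap3* and *Gtf2ird1*. Of the 21 host genes, 3 had a called event of another type, *Cln3* with a cassette exon elsewhere in the gene beside these (14.3%, against 2.75% of the 1271 host genes of all tested introns). Events of another type could be tested in 16 of the 21 and 678 of the 1271 genes, and those of *Evl* and *Grip1* share the junction tags of the intron.

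Among regulators of RNA, the 673-nt intron of *Tia1*, whose protein binds U-rich RNA and acts in splicing and in stress granules, had the next lowest p of the 22. Its retention was 0.602 and 0.660 in control and 0.817 and 0.755 in *Qk* cKO, so that the retained form was the major form in each library. ΔI was 0.156, with an adjusted p of 0.000356 in Fisher's exact test, 0.00465 with mean boundary tags and 0.481 in edgeR. Boundary tags were 128 and 101 in control and 122 and 145 in *Qk* cKO, and junction tags 84.5 and 52 against 27.2 and 47. The intron (chr6:86423672-86424344, plus strand) joins to a 66-nt cassette exon, which was included at 0.228 in control against 0.164 and was not called (adjusted p = 0.597, Fisher's exact test). The intron lies after the stop codon in *Tia1*-218, a transcript with an annotated coding part that splices it as intron 6 of 11. Further introns thus follow that stop codon. Whether *Tia1*-218 is classed as coding or as a target of nonsense-mediated decay was not examined. The form that keeps it, *Tia1*-225, is annotated in the class retained intron and not as coding.

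The last intron of *Safb2*, a nuclear scaffold attachment factor that binds RNA and DNA, was retained at 0.157 and 0.233 in control and 0.304 and 0.343 in *Qk* cKO (ΔI = 0.130, adjusted p = 0.0293, Fisher's exact test). The retained form is annotated both as a coding transcript and as a target of nonsense-mediated decay. *Hmgn2*, a nucleosome-binding protein of high expression, had a 286-nt intron at 0.368 and 0.304 in control and 0.434 and 0.470 in *Qk* cKO (adjusted p = 0.0263, Fisher's exact test). The last intron of *Gtf2ird1*, a transcription factor gene, stood at 0.309 and 0.306 against 0.440 and 0.408 (adjusted p = 0.00466, Fisher's exact test) on 56 to 89.5 boundary tags and 114 to 142 junction tags per library.

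Introns of signalling and enzyme genes followed. The 1129-nt intron of *Pde1b*, a calmodulin-dependent phosphodiesterase, had the highest ΔI of all called introns, 0.312. It was retained at 0.559 and 0.678 in control and 0.897 and 0.933 in *Qk* cKO (adjusted p = 0.00379, Fisher's exact test, and 0.392 in edgeR). Its junction had 16 and 6.88 tags in control and 3 and 2 in *Qk* cKO, so the values rest on few spliced tags. These spliced tags are also the skipping tags of the 131-nt cassette exon inside the interval, so RNA that joins through this exon is not among them. The retention values are thus not the share of all *Pde1b* RNA that keeps the interval. The exon was included at 0.959 in control against 0.990, with p = 0.00198 and an FDR of 0.0361 in Fisher's exact test, and missed only the limit on size. No transcript of GENCODE M21 splices exactly this interval, and the only annotated form that keeps it is a target of nonsense-mediated decay.

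Several introns of this group were short. That of *Ctu2*, a subunit of the enzyme that thiolates tRNA wobble uridines, was retained at 0.0704 and 0.154 in control and 0.258 and 0.360 in *Qk* cKO (ΔI = 0.196, adjusted p = 0.00637, Fisher's exact test). *Map4k2*, a kinase upstream of JNK, had 0.0333 and 0.0526 against 0.159 and 0.162, on 1 to 7 boundary tags per library. In *Appl2*, an endosomal adaptor, the values were 0.273 and 0.286 against 0.437 and 0.412, with a ΔI of 0.146. In *Aspscr1*, which tethers the GLUT4 glucose transporter inside cells, they were 0.120 and 0.0943 against 0.220 and 0.198, with a ΔI of 0.103. All 4 had values in control that lay closer to each other than to those of *Qk* cKO, and their edgeR adjusted p ran from 0.553 to 0.773.

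Actin, microtubule and axon genes gave *Camsap3*, *Aatk*, *Dab1* and *Boc* beside *Evl* and *Grip1*. The 970-nt intron of *Camsap3*, which encodes a protein that binds microtubule minus ends, was retained at 0.0714 and 0.0645 in control and 0.270 and 0.193 in *Qk* cKO (ΔI = 0.166, adjusted p = 0.0378, Fisher's exact test). The last intron of *Aatk*, a neuronal kinase gene, was retained at 0.113 and 0.149 against 0.286 and 0.250 (ΔI = 0.139). Both groups of values were apart, and both introns had at most 14 boundary tags in any library.

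*Dab1* encodes the adaptor that carries the Reelin signal in migrating neurons. Its 82-nt intron, the last of the annotated transcript *Dab1*-202, was one of the 2 with lower retention in *Qk* cKO. It was retained at 0.733 and 0.870 in control and at 0.429 and 0.586 in *Qk* cKO (ΔI = -0.295, adjusted p = 0.0712, Fisher's exact test). The junction had 3.34 and 3 tags in control and 10 and 12 in *Qk* cKO. The form that keeps this intron is annotated as a coding transcript. *Boc*, which encodes a co-receptor of hedgehog, had a 3279-nt intron retained at 0.222 and 0.101 in control and 0.0659 and 0.0511 in *Qk* cKO (ΔI = -0.103, adjusted p = 0.0671). The size of this difference rested on the controls, since it was -0.0421 without control 1 and -0.162 without control 2.

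Mitochondrial and lysosomal genes held 5 called introns. *Ankzf1*, which acts on stalled ribosomes and protects mitochondria under stress, was the only gene with 2 of them. Its 204-nt intron was retained at 0.269 and 0.208 in control and 0.510 and 0.567 in *Qk* cKO (ΔI = 0.304, adjusted p = 0.00936, Fisher's exact test), and its 140-nt intron at 0.328 and 0.292 against 0.431 and 0.477 (ΔI = 0.144). The 2 introns are numbers 6 and 9 of 12 in *Ankzf1*-208, so their boundary tags come from separate places of the same RNA. *Cln3*, which encodes a lysosomal membrane protein, had no boundary tag of its 85-nt intron in control 1 (upper Wilson limit 0.138), a retention of 0.118 in control 2 and of 0.280 and 0.271 in *Qk* cKO (ΔI = 0.197, adjusted p = 0.00457, Fisher's exact test). *Hps5*, a subunit of the BLOC-2 complex of lysosome-related organelles, had 0.226 and 0.103 against 0.504 and 0.350, on at most 10.6 boundary tags in any library. *Atad3a*, a mitochondrial inner membrane ATPase, had 0.126 and 0.152 against 0.232 and 0.252 over 1176 nt.

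The remaining 2 were the 409-nt intron of the 3′ UTR of *Magt1*, a magnesium transporter and oligosaccharyltransferase subunit, and a 226-nt intron of *E130306D19Rik* (*Arhgef39* in the annotation). *Magt1* was retained at 0.807 and 0.736 in control and 0.976 and 0.912 in *Qk* cKO, with 7.90 and 12 junction tags in control and 1 and 5 in *Qk* cKO. *E130306D19Rik* had 0.0332 and 0.112 against 0.133 and 0.205, and its ΔI of 0.112 was 0.0573 without control 1. In all 22 introns the 5′ boundary alone and the 3′ boundary alone gave a ΔI of the same sign, with 0.320 and 0.115 in *Magt1* and 0.102 and 0.105 in *Aspscr1*, as was the case in 1225 of the 1751 tested introns.

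**Figure D3:**
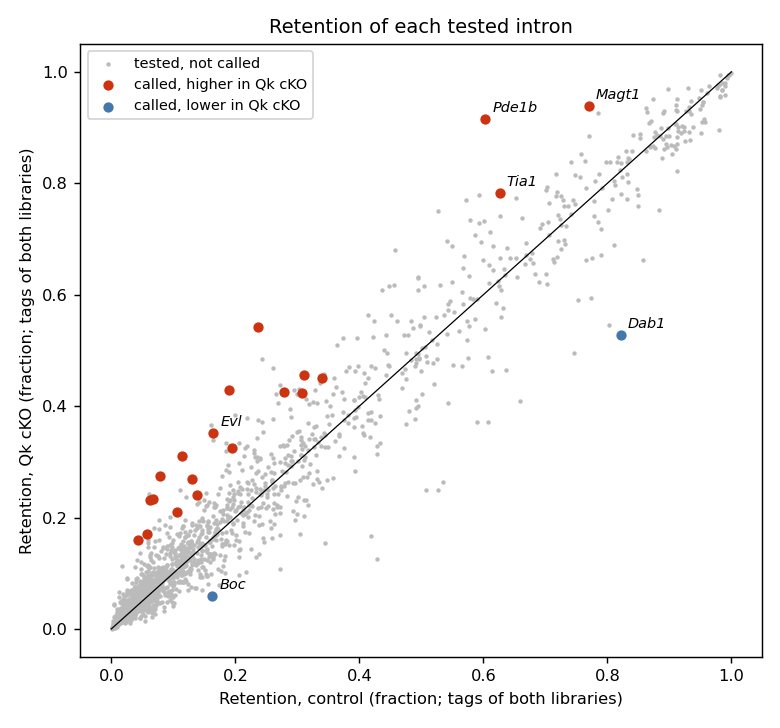
Retention of the 1751 tested introns in control (x axis) and *Qk* cKO (y axis), each as a fraction of the tags of both libraries. Grey points were not called, red and blue points are the called introns with higher and lower retention in *Qk* cKO, and the line marks equal values; most points lie near the line, with 1063 above it and 688 below.

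The introns just outside the limits showed where the line fell. Those of *0610007P22Rik*, *Cdc7*, *Lpcat4* and *Ube2d2a*, with a ΔI of 0.138, 0.107, 0.181 and 0.209, had a p below 0.01 and missed only the FDR limit, at 0.105 to 0.112. With differences nearest below the limit, those of *Gtpbp6*, *Coq6*, *Drp2* and *Nek4* had a ΔI between 0.0957 and 0.0996. Just inside stood *Ankzf1* (140 nt) with an FDR of 0.0870, and *Boc*, *Atad3a* and *Aspscr1* with a size of 0.103.

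Without the limit on size 87 introns passed (4.97% of those tested), 76 with higher and 11 with lower retention in *Qk* cKO. The further 65 differed by 0.00122 to 0.0996 with a median of 0.0392, and 51 of them had an unadjusted edgeR p below 0.05. They included introns of *Ddx5*, *Sf3b1* and *Celf2* from the list of spliceosome and RNA-binding genes. In *Ddx5*, an RNA helicase gene with very deep coverage, a 1265-nt intron was retained at 0.178 and 0.208 in control and 0.218 and 0.242 in *Qk* cKO (ΔI = 0.0390, adjusted p = 5.66e-09, Fisher's exact test). In *Sf3b1*, which encodes a branch point factor of the U2 snRNP, the values were 0.176 and 0.187 against 0.201 and 0.224, and in *Celf2*, a neuronal splicing regulator, 0.689 and 0.767 against 0.745 and 0.793. The control values of *Celf2* overlapped those of *Qk* cKO, and edgeR gave unadjusted p-values of 0.119, 0.235 and 0.215 for *Ddx5*, *Sf3b1* and *Celf2*.

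By gene group, the list of splicing kinases and SR proteins, whose introns are classical examples of regulated retention, had 10 tested introns in 8 of its 21 genes and none was called at any size, with groups apart upward in 1. Their median control retention was 0.306, beside 0.110 over all tested introns, and their median ΔI was 0.00733 beside 0.00519. Of the 40 other spliceosome and RNA-binding genes 20 had 35 tested introns with a median ΔI of 0.00288, and 5 were called at any size, all with higher retention in *Qk* cKO, 2 of them with the limit on size (*Tia1* and *Safb2*). Of 44 actin, microtubule and axon genes 8 had 10 tested introns, and 6 were called, 4 higher and 2 lower. Of 6 mitochondrial and lysosomal genes 4 had 6 tested introns, and 5 were called, all higher. Over all tested introns 4.97% were called at any size and 1.26% with the limit. The lists were drawn up with earlier results of these data known, the last 2 with several of these introns in view, so the counts are no evidence about the groups. No intron of *Qk*, *Nin*, *Flna*, *Ogt* or of the neuronal genes *Vamp2*, *Sv2a* and *Kif5a* was among the events.

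The question whether retention shifted as a whole was addressed over all tested introns. The median retention was 0.107 in each control and 0.113 and 0.120 in *Qk* cKO. Retention was higher in *Qk* cKO 1 than in controls 1 and 2 in 52.4% and 54.3% of the introns and in *Qk* cKO 2 in 60.3% and 61.9%. *Qk* cKO 2 was also above *Qk* cKO 1 in 56.7%, and control 1 above control 2 in 51.6%, so the shares between the *Qk* cKO embryos were no closer to 50% than those between *Qk* cKO 1 and the controls. Over the tags of all introns retention was 17.7% in both controls and in *Qk* cKO 1 and 18.5% in *Qk* cKO 2. With 2 against 2 libraries an exact permutation test cannot go below p = 0.33, so no test was made. The median absolute difference was 0.0243 between the single control libraries and 0.0248 between the single *Qk* cKO libraries. It was 0.0189 between the group values, each calculated over the tags of both libraries of a group. Values over both libraries vary less than those of single libraries, so 0.0189 cannot be compared directly with the differences between replicates.

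Retention in control differed with the place of the intron in the transcript. The 1602 introns between coding exons had a median retention of 0.0951, the 22 introns of 5′ UTRs 0.450, the 37 of non-coding transcripts 0.541 and the 61 of 3′ UTRs 0.626. The 29 introns that GENCODE M21 does not list as spliced stood at 0.905. The order was the same in *Qk* cKO, with medians of 0.103, 0.374, 0.530, 0.616 and 0.895, and, in control, when the boundary with fewer tags was used, with medians of 0.0731, 0.221, 0.462, 0.544 and 0.802. The tags of the 2 boundaries were over 2-fold apart in 22.3% of the introns between coding exons, 54.5% of those in 5′ UTRs, 51.4% of those in non-coding transcripts, 31.1% of those in 3′ UTRs and 48.3% of those not listed as spliced. Of the 22 called introns 19 lay between coding exons (1.19% of that class) and 2 in 3′ UTRs (3.28%), and 1 was not listed as spliced. The intron of *Tia1* counts as 3′ UTR by its place in the transcript *Tia1*-218. Places were read from a single transcript that splices the intron, of the class protein coding where available. Otherwise any transcript with a coding part was used, which can be a target of nonsense-mediated decay. Introns after an early stop codon can therefore be among those of 3′ UTRs, and their share was not examined. Groups of 22 to 61 introns leave these shares imprecise, and they were not tested.

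**Figure D4:**
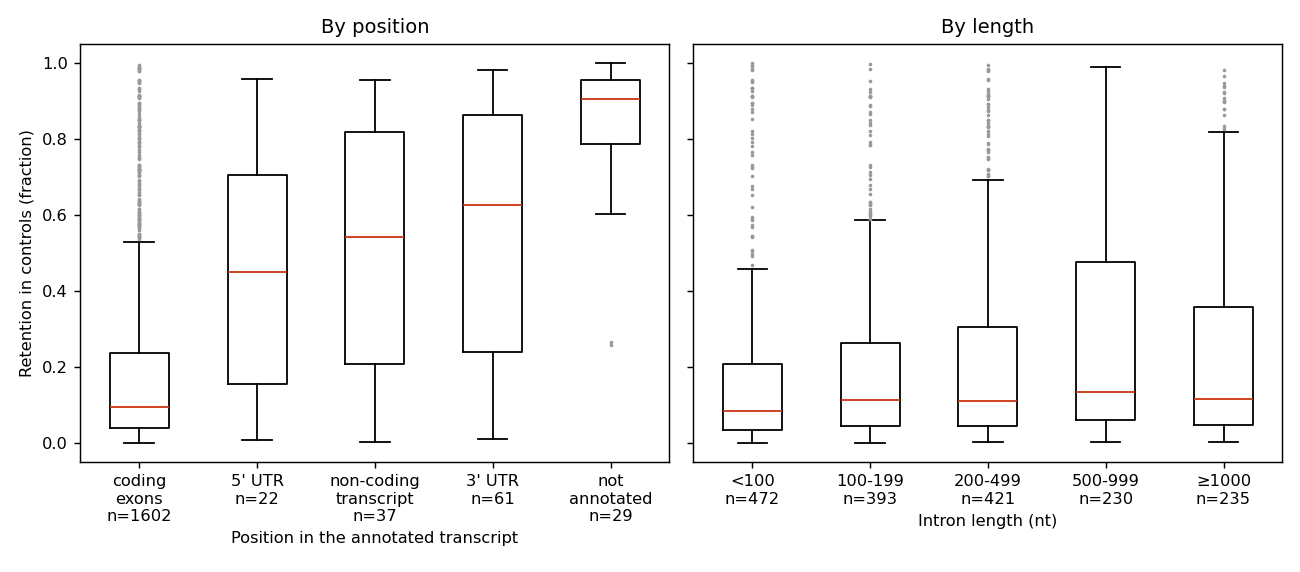
Retention in control (y axis, fraction of the tags of both libraries) of the tested introns by position in the annotated transcript (left) and by length (right). Boxes span the quartiles, red lines are medians, whiskers reach up to 1.5 quartile ranges and dots are introns beyond them; introns between coding exons have a median of 0.0951 and those of 3′ UTRs 0.626, while medians by length stay between 0.0843 and 0.133.

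Length made less difference than position. The median retention in control was 0.0843 for the 472 introns under 100 nt, 0.113 from 100 to under 200 nt, 0.111 from 200 to under 500 nt, 0.133 from 500 to under 1000 nt and 0.115 for longer ones. Calls numbered 7, 2, 4, 5 and 4 in these classes, and the median length was 256 nt among called and 203 nt among tested introns. GC content, known for 1558 introns, had a median of 48.2% among 19 called introns and 52.7% over all. Retention was lower in strongly expressed genes, at a median of 0.0445 above 50 RPKM and 0.324 under 5 RPKM (Spearman's correlation of -0.33 over 1749 introns, which share libraries and genes). A weakly expressed gene enters only when both forms have tags, and the part of the coverage minimum in this relation was not tested. Last introns of the coding part had a median of 0.143 and those neither first nor last 0.0904.

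Of 1421 introns whose reading frame could be followed, 84.2% held an in-frame stop codon, and 15 of the 16 called introns of this kind did. Only 5.70% would have kept the frame, by length and without a stop. These 81 introns had a median control retention of 0.186 (quartiles 0.0709 and 0.578), beside 0.0973 (0.0413 and 0.238) for the 1340 others, and none of them was among the 22. All 1558 introns with a sequence began with GT and ended with AG, and 16 had the start of a U12-type intron. In 1213 tested introns GENCODE M21 has a transcript of the class retained intron that keeps them.

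The highest and lowest retention in control, among introns with coverage of at least 50, gave the range. A 3′ UTR intron of *Mtch1*, a mitochondrial outer membrane protein gene, was retained at 0.981, a 93-nt interval of *Hnrnpk* that is not annotated as spliced at 0.955, a 97-nt intron of *Bag6*, a chaperone gene, at 0.949, a 3′ UTR intron of *Glo1*, a glyoxalase gene, at 0.938 and that of *Prkar2b*, a subunit gene of protein kinase A, at 0.935. At the other end stood *Hsp90ab1* with 0.000897, *Rpl7* with 0.00146, *Rpl18* with 0.00180, *H3f3b* with 0.00308 and another intron of *Hnrnpk*, of 326 nt, with 0.00349. The values of the 93-nt interval of *Hnrnpk* and of *Bag6* rest on the 3′ boundary. In *Hnrnpk* the controls had 16.2 and 9.23 tags at the 5′ boundary, 2933 and 2538 at the 3′ boundary and 68.4 and 62.4 at the junction, and in *Bag6* 14.4 and 9.01 tags at the 5′ boundary, 706 and 606 at the 3′ boundary and 12.3 and 23.8 at the junction, so retention by the 5′ boundary is far lower in both. For that 326-nt intron of *Hnrnpk*, an RNA-binding protein gene, retention was 0.00250 and 0.00457 in control and 0.00696 and 0.00907 in *Qk* cKO (ΔI = 0.00458, adjusted p = 0.00457, Fisher's exact test), and that of *Rpl7* was 0.00151 and 0.00141 against 0.00231 and 0.00311 (adjusted p = 0.0635, Fisher's exact test). The other 8 introns did not pass the test at any size.

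Since Quaking proteins bind ACUAAC, the letters ACTAAC were searched in the introns on the sense strand, with the reverse complement GTTAGT on the same windows. ACTAAC was found in 5.52% of 1558 introns and GTTAGT in 7.64%, and each in 2 of the 19 called introns with a sequence. *Grip1* and *Hps5* held ACTAAC, and *Hps5* and *Tia1* GTTAGT. Both ACTAAC introns were between 500 and 1000 nt long, a class in which 9.90% of 202 introns held ACTAAC and 12.4% GTTAGT. In the first 70 bases ACTAAC was in 0.454% and in the last 70 in 0.843% of 1542 introns of at least 70 nt, in the 100 bases of exon before and after the intron in 0.449% and 0.578% of introns, and in none of the 19 called introns in these windows. The stretches with the motif are shown because these are its occurrences in the 19 called introns that could be searched (*Boc*, *Atad3a* and *Gtf2ird1* had no sequence), with ACTAAC in capitals. In the second stretch of *Grip1* it occurs 2 times with shared letters.
Grip1, chr10:119985740-119985779, plus strand: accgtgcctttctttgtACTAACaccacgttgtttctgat
Grip1, chr10:119986201-119986244, plus strand: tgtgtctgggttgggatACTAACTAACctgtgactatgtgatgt
Hps5, chr7:46775383-46775422, minus strand: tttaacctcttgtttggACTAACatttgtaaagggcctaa
Hps5, chr7:46775286-46775325, minus strand: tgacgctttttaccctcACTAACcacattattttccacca
A match is a description of the letters and shows neither binding nor its absence.

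Steady-state levels of the host genes were compared with the quasi-likelihood test of edgeR on gene tags. None of the 21 host genes of called introns was called, beside 110 of 18834 genes (0.584%) and 7 of 1269 host genes of tested introns. That number over all genes was between 0, without control 2, and 428, without *Qk* cKO 1, when a library was left out, and 11 with filterByExpr, so a count of none among 21 genes says little. At an unadjusted p below 0.05 there was 1 of the 21, *Aspscr1*, with 40.9 ± 0.222 RPKM in control and 35.1 ± 0.960 in *Qk* cKO (mean ± SD, n = 2 each; log2 fold change -0.21, SE 0.07, adjusted p = 0.303). DESeq2 called none of the 21 either. The log2 fold changes of the 21 genes ran from -0.23 in *Aatk* to 0.10 in *Hmgn2*, with a median of -0.01, and 15 were below 0, beside 9519 of all 18834 genes. *Evl* had 178 ± 5.02 RPKM in control and 168 ± 5.65 in *Qk* cKO (log2 fold change -0.07, SE 0.08), and *Tia1* 35.5 ± 1.85 and 35.9 ± 2.27 (0.03, SE 0.06).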

How the data were processed

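Polyadenylated RNA of 2 control and 2 *Qk* cKO E14.5 cortices was sequenced as 150-nt paired ends. The authors aligned the reads to mm10 with OLego and quantified them with Quantas, versions not given in the sources used here. The deposited values are estimated counts of tags for the isoforms and junctions of each event and for each gene, with RPKM calculated by the authors. Groups and replicate numbers came from the sample titles. The study's methods give 3 replicates of the RNA and its results and labels 2.

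Fisher's exact test was run on the retained tags, which are the sum of both boundaries, and the junction tags, rounded and summed per group, over introns with coverage of at least 20 (the smallest row or column sum), with the study's thresholds of p below 0.01 and FDR below 0.1 and a ΔI of 0.1. Host genes with at least 1 tag were compared with edgeR 4.0.16 (quasi-likelihood test, TMM) in R 4.3.3, and with DESeq2 1.42.0. Interaction tests used edgeR on the retained tags, again the sum of both boundaries, and the junction tags, rounded, with a baseline for each sample. Splicing alternatives were mean boundary tags, other coverage minima, a Cochran-Mantel-Haenszel test, other adjustments and size limits, and each library left out. A fit of edgeR over all 6 event types was added after seeing the data. The scripts were tested on simulated data for 1304 introns, in which Fisher's exact test recovered 160 of 200 changed introns with 46 false calls and edgeR 154 with 11 false calls, and for 18602 genes, with 190 of 200 recovered and 4 false. The simulated dispersion was 0.01, below the 0.0201 that the interaction test estimated for the real introns, and no limit on ΔI was set. These counts check the scripts and do not give the power of the tests in these data. Sites were placed on GENCODE M21 (GRCm38), where 1722 of the tested introns are annotated as spliced, and sequences were taken from transcripts that keep the intron, for 1558. Intervals cover counting error only. Same-numbered samples did not deviate together (correlation 0.0428 over 1750 introns, 2 pairs). The embryos were littermates, so edgeR's p-values measure only the spread between these 4 samples, and those of Fisher's exact test only counting error. No column of other samples was present.

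Named introns were all called introns, the 5 highest and lowest in control, those nearest the limits, and called members of gene lists. The introns and the lists were chosen with earlier results of these data known.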

Additional observations from a re-analysis of the deposited data

How the results depend on the processing

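The number of called introns depended on the test and on the limit on ΔI. Against 22 (20 higher in *Qk* cKO), mean boundary tags gave 3 (3 higher), the edgeR interaction test 0, the edgeR fit over all 6 event types 0, a ΔI limit of 0.2 gave 4 (3 higher) and no limit 87 (76 higher). Leaving out each library gave 24 to 40 calls, 16 to 33 of them higher and 4 to 10 lower, with the largest number without control 2. Coverage of at least 10 or 50, adjustment over all event types and counting every listed event gave 15 to 27. With the replicate number as a block, the Cochran-Mantel-Haenszel test called 18 (17 higher) and edgeR 1 (1 higher, *Evl*, adjusted p = 0.0554). Whether the replicate numbers pair the samples is not known. All 22 introns kept their direction with the smaller boundary count and with either boundary alone, and 47 of these 66 values moved by less than the spread between replicates. Since the groups of all 22 do not overlap, averaging replicates or leaving out a library could not turn a direction. None of the 21 host genes was called under DESeq2 (81 of all genes called), filterByExpr (11), the replicate block (192) or without a library (0 to 428). The difference in median retention between the groups, 0.00948, was 0.00409 over summed tags and 0.0127 at a coverage of at least 50. Tags limit the rest, since 13 of the 22 introns had fewer than 20 boundary tags, or fewer than 20 junction tags, in each library. Median control retention was higher by 0.531 in 3′ UTRs than between coding exons, and by 0.470 with the smaller boundary count, a choice made after seeing the data.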
